A study of Homo sapiens with 2 samples.

Results

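The genes described here are the protein-coding zinc finger genes of human chromosome 19 whose symbol is ZNF followed by a number. They were chosen by symbol, gene class and chromosome in GENCODE 29, and ZNF773 was left out. This gave 248 genes of 58347 in the counts table, 132 of them on the plus strand. They were measured by eCLIP of U2AF2, which crosslinks protein to RNA with ultraviolet light, pulls the protein down and sequences the attached RNA. The cells were HEL, a human erythroleukemia cell line, and the labels name no treatment. There was 1 group of 2 biological replicates. Input libraries were not analysed here, so no value is an enrichment over input, and levels are compared between genes and between the replicates.

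Most of these genes encode proteins with an array of C2H2 zinc fingers, each finger a short fold held by a zinc ion that contacts a few bases of DNA. Many also carry a KRAB domain, which recruits the corepressor TRIM28 and the histone methyltransferase SETDB1 and so places silent chromatin at the bound site, often at a retrotransposon. The genes arose by repeated local duplication and stand in clusters along chromosome 19. U2AF2, the larger subunit of the splicing factor U2AF, binds the polypyrimidine tract that lies just before the AG at the end of an intron.

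The gene counts summed to 995428 in replicate 1 and 1350116 in replicate 2, and of the uniquely mapped reads 2.66% in replicate 1 and 2.60% in replicate 2 were counted on a gene. A gene with a count of 0 could stand at up to 2.96 CPM in replicate 1 and 2.26 CPM in replicate 2, which is 3 counts at the library size after TMM scaling. CPM is a gene's counts scaled to the size of its library. Such limits, and the intervals given, hold counting error alone. The labels do not say what was separate between the replicates beyond calling them biological, so the spread between them may be partly technical. The strand setting of the counting is not given in the sources used here. For a gene with a partner on the other strand it is therefore uncertain which of the 2 genes its reads came from, and for a gene without one it is uncertain which strand they came from. Of the erythroid and megakaryocyte markers of HEL, TAL1 held 22 and 28 counts, while PF4 held 0 and 0, ITGA2B 0 and 2 and GATA1 6 and 14. Among markers of other cell types, ALB and SPI1 held 0 counts in both libraries and CD3E 0 and 1. These are counts of RNA attached to U2AF2, without input, so a low count need not mean little RNA. In bulk libraries of this kind, fewer cells holding an RNA, less of it per cell and less of it bound by U2AF2 cannot be told apart.

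The 248 genes together held 6709 counts in replicate 1 and 9235 in replicate 2. This was 0.674% of the gene counts in replicate 1 (exact 95% binomial interval 0.658 to 0.690) and 0.684% in replicate 2 (0.670 to 0.698). Of the counts on protein-coding genes they held 1.28% ± 0.00725 (SD, n = 2), and they made up 1.25% of those genes. Both libraries gave 10 or more counts for 66 of them (26.6%), against 24.8% of all protein-coding genes. No count in either library was found for 47 (19%), against 20.1% of all protein-coding genes. The median gene of the set held 2 counts in replicate 1 and 2.5 in replicate 2, against 2 and 3 for all protein-coding genes. The zinc finger genes as a set therefore stood near the level of the other coding genes, and the differences lay among themselves.

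A few genes held most of the counts. ZNF814 (chromosome 19, 57848731 to 57889074, minus strand, GRCh38) led with 762 counts in replicate 1 and 897 in replicate 2, a level of 714 ± 55.0 CPM (SD, n = 2). ZNF154 (57697367 to 57709194, minus strand) held 527 and 795 counts, or 560 ± 55.0 CPM. ZNF135 (58059239 to 58086310, plus strand) held 517 and 675 counts, or 510 ± 1.94 CPM. These 3 stood above the other genes in both libraries. ZNF552 followed with 363 and 448 counts (348 ± 15.2 CPM), ZNF671 with 350 and 460 (346 ± 0.300 CPM), and ZNF544 with 311 and 460 (327 ± 27.6 CPM). The levels of these last 3 genes overlapped between libraries, so their order is not resolved. All 6 lie in the same cluster near the end of the long arm and held 41.3% ± 1.23 of the counts of the 248 genes. The leading 20 held 74.1% ± 1.47.

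The next 6 genes lay in 2 clusters. ZNF227 held 241 and 352 counts (252 ± 19 CPM) and ZNF233 166 and 226 (167 ± 4.31 CPM), both in the cluster they lead. ZNF446 held 227 and 303 counts (226 ± 2.67 CPM), ZNF587 196 and 234 (185 ± 12.4 CPM), ZNF550 183 and 220 (173 ± 10.8 CPM) and ZNF549 160 and 220 (162 ± 5.31 CPM), all in the last cluster. Per kb of exon, which sets genes of different length side by side, the order among the 6 leaders was different. ZNF552 held 271 counts per kb over both libraries, ZNF154 231, ZNF671 229, ZNF135 186, ZNF814 132 and ZNF544 108, against a median of 0.703 over all 248 genes.

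What these leaders share beyond their name is a gene on the other strand. An opposite-strand gene was present for 19 of the 20 leading genes. By this is meant a gene whose span on the other strand covers some of their exon bases, and for 13 such a gene was protein-coding. The covered share of exon bases differed widely among the 19, from 1.45% in ZNF324 and 12.5% in ZNF606 to 100% in ZNF154. Among all 248 genes, 100 (40.3%) had an opposite-strand gene of any class, close to the 42.2% of all protein-coding genes. A protein-coding gene lay opposite 42 of the 248, and opposite 4452 of all 19817 protein-coding genes. For ZNF135 the partner is ZSCAN18, a SCAN domain zinc finger gene. For ZNF446 it is SLC27A5, which encodes a bile acid-CoA ligase. For ZNF814, ZNF154, ZNF552, ZNF227, ZNF233, ZNF587, ZNF550 and ZNF549 it is another zinc finger gene of this set. The exception among the 20 was ZNF546, with 97 and 176 counts and no overlapping gene on either strand.

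U2AF2 acts at the ends of introns, and some introns of the partners end inside exons of the zinc finger genes. Whether reads came from these sites was not tested. There were 52 such sites in 39 genes, each with its last 25 intron bases and first 5 exon bases inside an exon of the zinc finger gene, and 51 of them had AG at the intron end. They are shown on the strand of the partner, 5′ to 3′, read from the GENCODE 29 transcripts of the zinc finger genes. Capitals mark the longest run of pyrimidines and the AG. The first 7 lie in genes with high counts and are shown because a U2AF2 site of the partner would lie inside the counted exons there. They are a choice from more such sites and hold 73.9% to 78.3% pyrimidines over the 23 bases before the AG. Further sites in the same genes are not shown, and most of them are poorer. They hold 52.2% in ZNF446, 56.5% and 65.2% in ZNF135, and 69.6% and 65.2% in ZNF587. In ZNF227 they hold 60.9% and 78.3%, and in ZNF549 73.9%. Sites of other leading genes, not shown, include poorer ones in ZNF544 (52.2%), ZNF506 (56.5%) and ZNF233 (60.9%). The site in ZNF790, also not shown, holds 73.9%.

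ZNF587 intron end in ZNF814 (chr19:57858551-57858580, plus strand): ttgaccagcaTTTTCTTgctttcAGgttgt
ZNF814 intron end in ZNF587 (chr19:57858979-57859008, minus strand): gtttcactgtctgTCTTCTCTacAGcagct
ZSCAN18 intron end in ZNF135 (chr19:58086262-58086291, minus strand): TTCTTTggtttttaaccccactcAGggtat
ZNF235 intron end in ZNF227 (chr19:44236725-44236754, minus strand): tcacatttgtatggTTTTTCTCCAGtgtgg
SLC27A5 intron end in ZNF446 (chr19:58480801-58480830, minus strand): ctctggcaTCCCCTgctgcctccAGagtct
ZNF550 intron end in ZNF549 (chr19:57552718-57552747, minus strand): attctaTTTCTTTTgctatcaacAGggcat
AC021092.1 intron end in ZNF224 (chr19:44108333-44108362, minus strand): gtgTCTCTCCTTTgtgaactttcAGatgag

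The next 3 lie in genes with few or no counts and are shown because they hold a pyrimidine run and an AG of the same form.

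AC010320.4 intron end in ZNF480 (chr19:52325891-52325920, minus strand): tgCTTTTTTTCatgttttattttAGgttca
AC011503.1 intron end in ZNF726 (chr19:23920194-23920223, minus strand): gagtataTTTTTTTTTaaatttcAGgcttt
AC024563.1 intron end in ZNF492 (chr19:22665720-22665749, minus strand): TTTTCTaaatttattacatttacAGggttt

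ZNF480 held 2 and 1 counts, and ZNF726 and ZNF492 held 0 in both libraries, although each of them has such a site. The site in ZNF814 is also annotated for AC010522.1, which held 0 counts in both libraries. Over the 23 bases before the AG, the 29 sites in genes that reached 10 counts in both libraries had a median of 73.9% pyrimidines, and the 23 sites in the other genes had 60.9%. The range over all 52 sites was 21.7% to 91.3%, and no test was made of this difference. A site of this form was thus found both in the leading genes and in genes with no count.

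**Figure D1:**
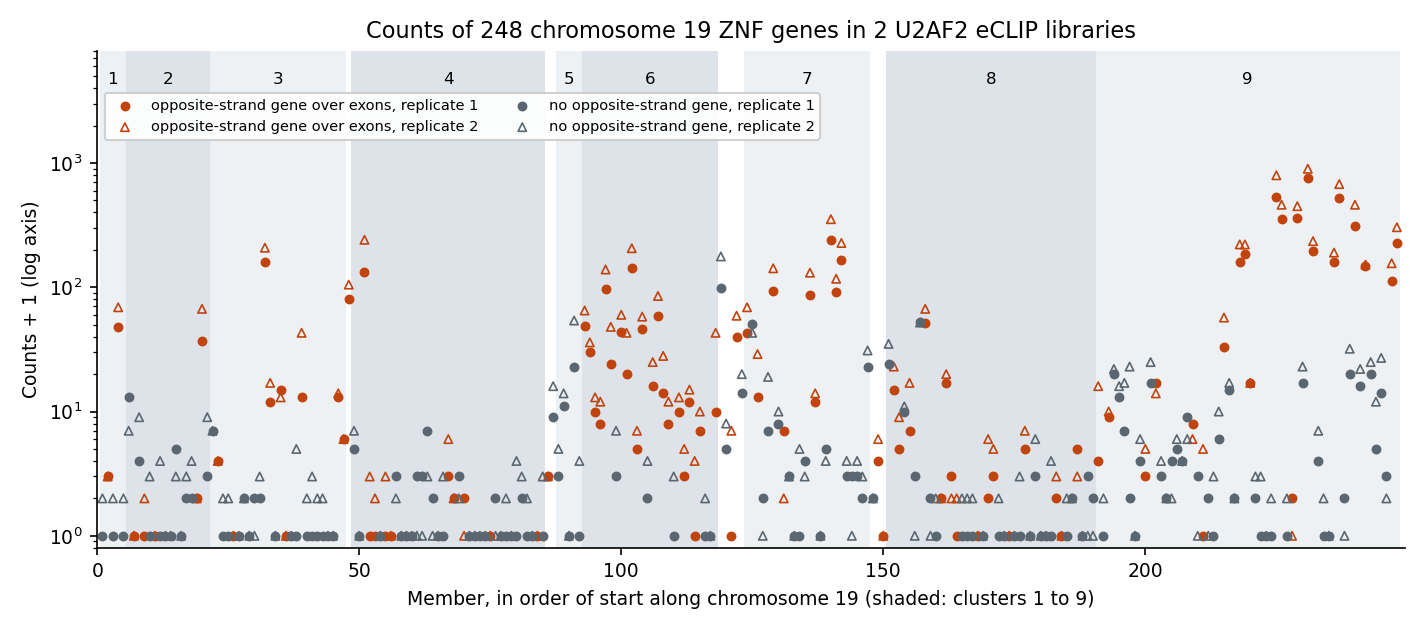
Counts plus 1 (log axis) of each of the 248 chromosome 19 ZNF genes in order of their start along the chromosome, filled circles for replicate 1 and open triangles for replicate 2, with the 9 clusters shaded. Genes with an opposite-strand gene over their exons (orange) hold the highest counts, and the 6 leaders stand together in the last cluster.

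Presence and strand of overlapping genes separated the zinc finger genes. The 67 genes with a gene on the opposite strand only had medians of 9 counts in replicate 1 and 13 in replicate 2, and 32 of them (47.8%) reached 10 counts in both libraries. The 33 with genes on both strands had medians of 11 and 12, and 17 (51.5%) reached that level. The 56 with a gene on the same strand only had medians of 0 and 1, and 6 (10.7%) reached it. The 92 with no overlapping gene had medians of 1 and 1, and 11 (12%) reached it. Genes with any opposite-strand gene held 90.6% ± 0.623 of the counts of the set (SD, n = 2), or 6107 of 6709 counts in replicate 1 and 8325 of 9235 in replicate 2. Most counts of all protein-coding genes also lay on those with an opposite-strand gene, 432425 of 526510 in replicate 1 and 587155 of 718957 in replicate 2.

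Among all protein-coding genes too, those with an opposite-strand gene stood above those without. The level of 10 counts in both libraries was reached by 43.6% of coding genes with an opposite-strand gene only, 35.5% with genes on both strands, 9.70% with one on the same strand only and 12.8% with none. The zinc finger genes of each class lay within a few percentage points of these shares, apart from those with genes on both strands, 51.5% against 35.5%. The median level was 2.17 higher on the log2 CPM scale in zinc finger genes with any opposite-strand gene than in those with no overlapping gene (1.97 in replicate 1 and 2.22 in replicate 2). Genes are not replicates, so these are descriptions with no test.

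**Figure D2:**
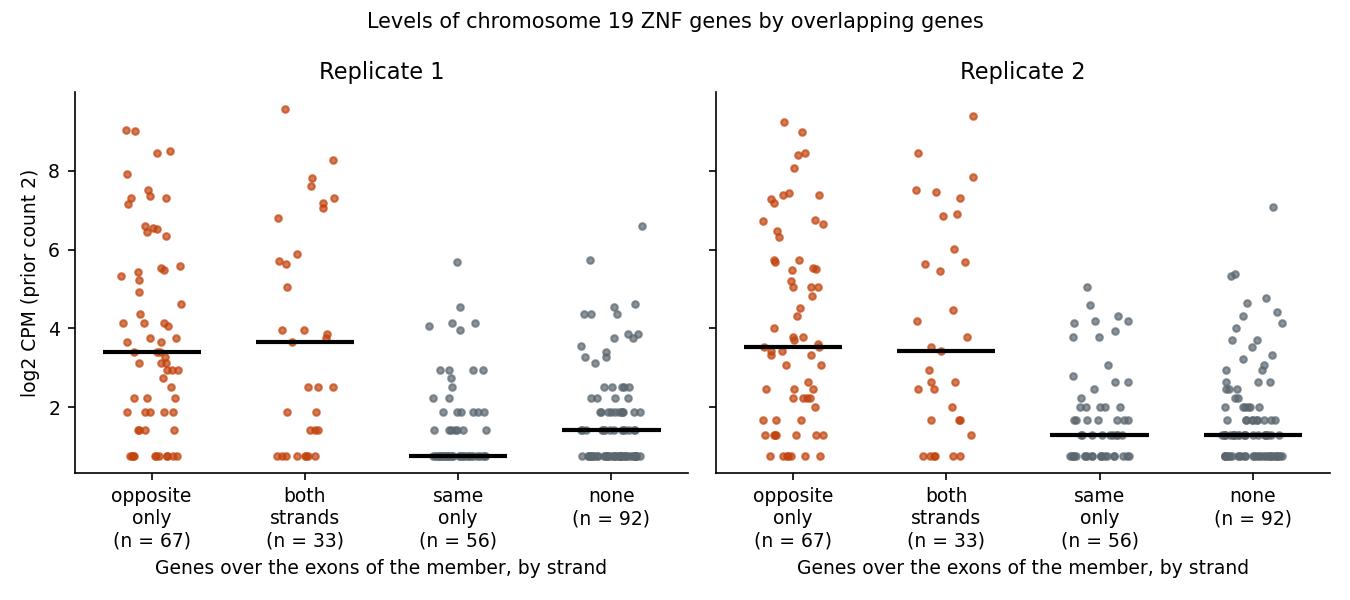
Levels of the chromosome 19 ZNF genes as log2 CPM with a prior count of 2 (y axis), by the strand of the genes that lie over their exons (x axis), in each library. Points are genes and bars are medians, and the genes with an opposite-strand gene (orange) have medians of 3.41 and 3.65 in replicate 1 against 1.43 for genes with none.

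Levels also differed by the class of the partner. Of the 42 zinc finger genes with a coding partner opposite, 31 (73.8%) reached 10 counts in both libraries, against 56.1% of all coding genes with such a partner. Their medians were 35.5 counts in replicate 1 and 56.5 in replicate 2. With non-coding genes only on the opposite strand, 18 of 58 (31.0%) did, with medians of 2.5 and 5, against 26.1% of all coding genes of that kind. Those with the coding partner held 67.7% ± 1.42 of the counts of the set, and those with the non-coding partner 22.9% ± 0.795. Among non-coding partners, the processed transcript ZNF433-AS1 lies opposite ZNF433, which held 159 and 207 counts (156 ± 0.913 CPM). The pseudogene AC011477.1 lies opposite ZNF506, which held 132 and 240 counts (156 ± 35.5 CPM). The antisense RNA AC011468.5 lies opposite ZNF432, which held 51 and 66 counts.

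An intron end of an opposite-strand gene inside the exons, as in the sequences above, marked 39 zinc finger genes. Of these, 20 (51.3%) reached 10 counts in both libraries, against 46 of the 209 others (22.0%). Over all protein-coding genes the shares were 51.2% with such a site and 20.9% without. Among zinc finger genes that had an opposite-strand gene but no such site, 29 of 61 (47.5%) reached that level, against 37.9% of coding genes of that kind. The medians were 11 and 13 counts for the 39 genes and 9 and 13 for the 61. Within the 42 genes with a coding partner, 10 of the 13 with a site (76.9%) and 21 of the 29 without one (72.4%) reached it, against 68.2% and 50.7% of all coding genes of these kinds. The medians were 160 and 220 counts for the 13 and 23 and 42 for the 29. ZNF154, ZNF552 and ZNF671 were among the highest genes and had no such site, although opposite-strand genes spanned 100% of their exon bases. The values of the leading genes were known when this grouping was made.

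Some of the overlapping partners are themselves zinc finger genes of this set, so that both strands of a locus can be compared. There were 16 such pairs of 30 genes. Both genes reached 10 counts in both libraries in 8 pairs, 1 of them did in 6 pairs, and neither did in 2. ZNF814 and ZNF587 held 762 and 897 against 196 and 234 counts. ZNF550 and ZNF549, which meet tail to tail over 22286 bases, held 183 and 220 against 160 and 220. ZNF227 and ZNF233 both lie opposite ZNF235, which held 91 and 116 counts.

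Other pairs were one-sided. ZNF154 held 527 and 795 counts and its partner ZNF551 0 and 1. ZNF552 held 363 and 448 and its partner ZNF586 1 and 0. ZNF790 held 142 and 205 counts and ZNF345, which meets it head to head over 427 bases, held 4 and 6. ZSCAN18, the partner of ZNF135 and no member of the set, held 0 in both libraries, while SLC27A5, opposite ZNF446, held 85 and 93. ZNF146, an unusual member known to consist almost only of fingers, is nested opposite ZNF565, and they held 29 and 35 against 48 and 64 counts. High counts on one gene of a pair thus went with either high or near-zero counts on the other.

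**Figure D3:**
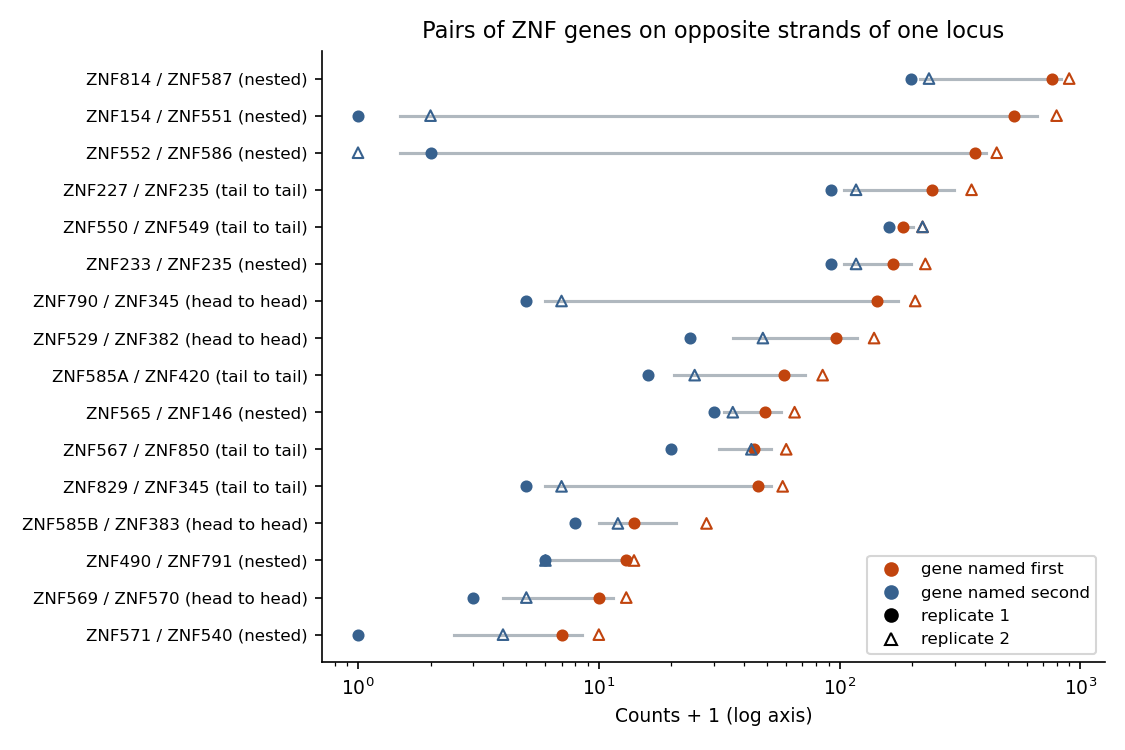
Counts plus 1 (log axis) of both genes of the 16 pairs of chromosome 19 ZNF genes on opposite strands, orange for the gene named first and blue for the other, circles for replicate 1, triangles for replicate 2, and grey lines joining the means. The pair ZNF550 and ZNF549 is nearly even, while ZNF551 and ZNF586 are at 0 or 1 count opposite the far higher ZNF154 and ZNF552.

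Genes without an opposite-strand gene were low, with few exceptions. After ZNF546 (114 ± 25.9 CPM, SD, n = 2) came ZNF614, with 52 and 51 counts (44.9 ± 9.19 CPM). ZNF576 held 50 and 42 counts (40.5 ± 12.6 CPM) and lies over SRRM5, a gene of the same strand with 264 and 313 counts. ZNF30 held 22 and 53 counts (30.8 ± 12.8 CPM) and ZNF175 23 and 34 (24.2 ± 2.03 CPM). In both libraries all 5 stood below each of the 12 leading genes. The largest of the rest, ZNF296 with 22 and 30 counts and ZNF274 with 19 and 31, held few counts. ZNF274 is known for binding the 3' ends of other zinc finger genes and recruiting SETDB1 there.

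Non-coding genes that lie over the zinc finger genes held more counts on the opposite strand, as did those over coding genes in general. The 55 single-exon non-coding genes opposite a zinc finger gene had a mean of 82.3 counts per kb, libraries summed, and the 34 on its own strand a mean of 3.92. Their ratio was 21.0, with 29.4 in replicate 1 and 17.2 in replicate 2, and over all protein-coding genes the same ratio was 29.3. Of all non-coding genes over the set, 49 of 123 on the opposite strand (39.8%) reached 10 counts in both libraries, and 7 of 66 on the same strand (10.6%). Over all protein-coding genes these shares were 32.8% on the opposite strand and 1.32% on the same strand. The non-coding genes of the opposite strand held 3954 and 5381 counts in all, which can be set beside the 6709 and 9235 counts of the zinc finger genes themselves.

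A few of these non-coding genes were as high as the leading zinc finger genes. AC020915.3, an antisense RNA opposite ZNF544, held 664 and 815 counts (635 ± 30.1 CPM, SD, n = 2), against 311 and 460 for ZNF544. AC005261.5, opposite ZNF460, held 439 and 599 counts (442 ± 12.1 CPM). AC011468.5 (chromosome 19, 52049007 to 52049754, plus strand) held 393 and 600 (420 ± 44.8 CPM), opposite ZNF432. It has a single exon and reached 1328 counts per kb, against 19.5 for ZNF432. AC021092.1, opposite ZNF224 and ZNF225, held 200 and 280 counts (204 ± 9.30 CPM). ZNF649-AS1, opposite ZNF577 and ZNF649, held 179 and 240 (179 ± 2.68 CPM). ZNF649 itself held 4 and 8 counts and ZNF224, a KRAB zinc finger repressor, 86 and 130.

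Position along the chromosome was the next comparison. Runs of genes with gaps of at most 1 Mb and at least 5 genes made 9 clusters with 237 genes, and 11 genes were isolated. The last cluster ran from ZNF628 to ZNF446 (55476332 to 58481230) and held 58 genes. It held 4290 and 5628 counts, which is 62.4% ± 2.12 of the counts of the set (SD, n = 2), while it holds 23.4% of the genes. Of the 20 leading genes, 13 lay in it. Without the 6 leaders its share was 36.0%. The left-out gene ZNF773 also lies there. With 715 and 2023 counts it would raise the share to 67.7%.

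The seventh cluster (ZNF575 to ZNF296, 24 genes), led by ZNF227 and ZNF233, held 12.8% ± 0.176 of the counts. The sixth cluster (ZNF565 to ZNF573, 26 genes), led by ZNF790 with 142 and 205 counts (147 ± 9.90 CPM) and ZNF529 with 96 and 138 (99.4 ± 6.38 CPM), held 9.43% ± 0.726. In these 3 clusters similar shares of the genes reached 10 counts in both libraries, 43.1% in the last, 41.7% in the seventh and 46.2% in the sixth, and all were above the 24.8% of all coding genes. The last cluster stood apart by the height of its leaders, with 1659 counts over both libraries for ZNF814, against 593 for ZNF227 and 347 for ZNF790.

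The short arm clusters held few counts. Cluster 4, from ZNF101 to ZNF254, holds 37 genes and lies next to the centromere. It held 157 and 272 counts, and of its genes only ZNF506 reached 10 counts in both libraries, or 2.7%. ZNF101 was second there with 4 and 6 counts, and 16 of its genes held none in either library. ZNF91 and ZNF93, known repressors of the retrotransposons SVA and LINE-1, lie in it and held 1 and 2, and 0 and 1 counts. Both were chosen after their values were seen. In the third cluster (ZNF653 to ZNF791) 5 of 26 genes reached 10 counts, led by ZNF433 and by ZNF44 with 12 and 42 counts. In the second (ZNF557 to ZNF846) 1 of 16 did, ZNF562 with 36 and 66 counts, ahead of ZNF557 with 12 and 6. In the first, 1 of 5 did, ZNF57 with 47 and 68 counts, and ZNF555 came second with 2 and 2.

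The eighth cluster, on the long arm, was low as well. In it (ZNF175 to ZNF331) 5 of 40 genes (12.5%) reached 10 counts in each library, led by ZNF432 and ZNF614. The small cluster 5 (ZNF302 to ZNF792) had no gene with an opposite-strand partner, and 2 of its 5 genes, ZNF30 and ZNF181 (10 and 13 counts), reached it. The isolated genes held 3.97% ± 0.406 of the counts of the set. Their highest were ZNF546 and ZNF333, which held 80 and 104 counts and lies opposite ADGRE2, an adhesion receptor gene with 23 and 75 counts.

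**Figure D4:**
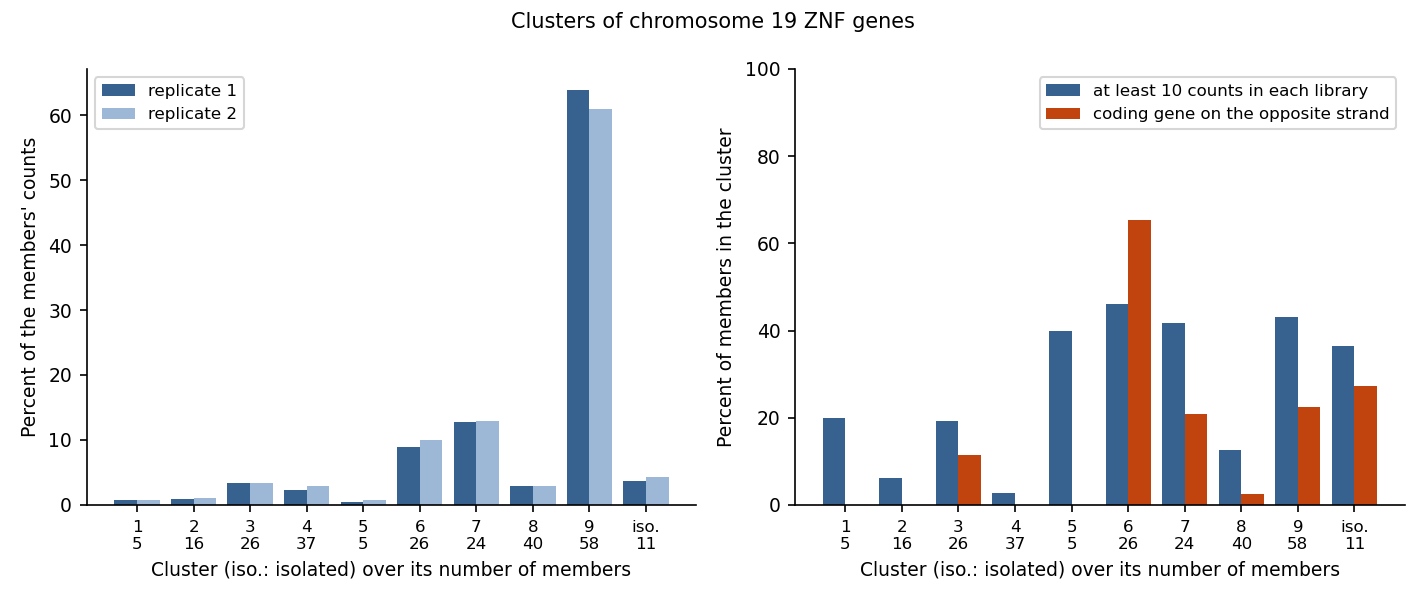
Share of the counts of the set held by each cluster in each library (left, percent) and the percent of each cluster's genes that reached 10 counts in both libraries or have a coding partner opposite (right). The last cluster holds 62.4% of the counts, and the sixth has the largest share of genes with a coding partner, 65.4%.

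The clusters also differed in how many of their genes had a coding partner, and the sixth, last and seventh, which had the most, were also the 3 with the largest shares of genes that reached 10 counts in both libraries. A coding gene lay opposite 17 of 26 genes (65.4%) in the sixth cluster, 13 of 58 (22.4%) in the last and 5 of 24 (20.8%) in the seventh. It lay opposite 3 of 26 in the third, 1 of 40 in the eighth and none in clusters 1, 2, 4 and 5. The match was not complete. In cluster 5, with no coding partner, 40.0% of the 5 genes reached 10 counts in both libraries, against 41.7% in the seventh. Of the 11 isolated genes, 27.3% had a coding partner, more than in the last or seventh cluster, and 36.4% reached that level. Among genes with an opposite-strand gene of any class, the median over both libraries was 322 counts in the last cluster, 207 in the seventh, 40 in the sixth and 1.5 in cluster 4. Among genes with no opposite-strand gene, none of 58 in the first 4 clusters reached 10 counts in each library, and 15 of 85 (17.6%) in the other 5 did. In the last cluster this was 9 of 36, with ZNF837 (19 and 24 counts) and ZNF865 (19 and 21) after ZNF274. With an opposite-strand gene it was 8 of 26 (30.8%) in the first 4 clusters and 39 of 68 (57.4%) in the other 5. What else differs between the clusters was not tested.

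Similar copies of a gene are a limit in this family, since reads mapping to several places are outside the counts. The share of 50-base stretches of a gene's transcripts that also occur in transcripts of genes elsewhere had a median of 1.20% over the 248 genes, and it was above 10% for 14 of them. It was 0.902% in the median of the 20 leading genes. ZNF587 (18.8%) and ZNF552 (14.2%) were above 10%, so their levels are less certain. The highest value was 41.0%, in ZNF98, which held 0 counts. In the 47 genes with no count the median was 2.08%, and in cluster 4 it was 3.83%. The 3 readthrough genes ZNF625-ZNF20, ZNF816-ZNF321P and ZNF559-ZNF177 share exon bases with genes of the same strand and held no counts.

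The zinc finger genes of other chromosomes were the nearest set for comparison. The level of 10 counts in both libraries was reached by 66 of 248 on chromosome 19 (26.6%), against 58 of 264 elsewhere (22.0%) and 27.0% of the other protein-coding genes of chromosome 19. The median level was 0.11 higher on the log2 CPM scale on chromosome 19, with 0.45 in replicate 1 and 0.15 in replicate 2. An opposite-strand gene lay over the exons of 40.3% of those on chromosome 19 and 40.5% of those elsewhere. With genes on both strands, 17 of 33 on chromosome 19 (51.5%) reached 10 counts in each library and 4 of 25 elsewhere (16%). For genes overlapped from the opposite strand alone the share was 47.8% on chromosome 19 and 42.7% elsewhere, and with no overlapping gene 12% and 12.9%. In genes with no opposite-strand gene the difference between the medians was 0.00 on the log2 scale. None of these differences between gene sets was tested.

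Partners of KRAB zinc finger proteins were read from a list of 16 genes. Of these, 7 reached 10 counts in both libraries (43.8%), against the 24.8% of all coding genes. TRIM28, the KRAB corepressor, held 6 and 11 counts and has no overlapping gene. SETDB1, the histone methyltransferase of the complex, held 188 and 237 (182 ± 5.21 CPM, SD, n = 2) and lies opposite CERS2. Of the HUSH silencing complex, PPHLN1 held 112 and 176 (122 ± 15.4 CPM), opposite PRICKLE1, FAM208A 95 and 139 (99.3 ± 7.61 CPM), opposite CCDC66, and MPHOSPH8 57 and 63 (51.9 ± 6.29 CPM), with no opposite-strand gene. MORC2, which acts with it, lies opposite MORC2-AS1 and held 0 counts in both libraries.

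Among the heterochromatin proteins, CBX1 held 34 and 32 counts, CBX3 7 and 16 and CBX5 1 and 3. The deacetylase gene HDAC1 held 20 and 41 and HDAC2 4 and 8. The remodeller gene CHD3 held 11 and 19, opposite NAA38, and CHD4 5 and 9. ATF7IP, the cofactor of SETDB1, held 1 and 7, the DNA methyltransferase gene DNMT1 3 and 6, and SMARCAD1 8 and 13. The 3 highest cofactors, SETDB1, PPHLN1 and FAM208A, each had a coding gene opposite, but so did CBX3, with few counts, opposite HNRNPA2B1. The low genes HDAC2, CHD4 and CBX5 also had an opposite-strand gene. CBX1 and HDAC1 had no overlapping gene, and neither did the lower ATF7IP and SMARCAD1, while DNMT1 had one on the same strand only.

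The replicates were then compared gene by gene, by an exact binomial test, two-sided, that weighed the libraries by their TMM-scaled sizes. Benjamini-Hochberg adjustment ran over the 8983 genes that reached 10 counts in both libraries. Of those genes, 0.612% passed at an adjusted p of 0.05, namely 0.490% with replicate 2 higher and 0.122% with replicate 1 higher. Without adjustment 8.72% had a p under 0.05. These p-values compare the reads of 2 libraries and cover counting error only. Of the 66 zinc finger genes tested, 0 passed and 8 had an unadjusted p under 0.05. ZNF773, whose reads differed between the 2 libraries (715 and 2023 counts, adjusted exact p = 2.07e-73), is outside the set, so the count of 0 is partly set by the choice of genes. The largest ratio was in ZNF44, with 12 and 42 counts, 1.37 higher in replicate 2 on the log2 scale (exact p = 0.00149, adjusted p = 0.124). It was the one gene of the 66 that differed by more than 2-fold.

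ZNF506 had 132 and 240 counts (log2 difference 0.47, exact p = 0.00281, adjusted p = 0.191) and ZNF546 had 97 and 176 (0.46, exact p = 0.0102, adjusted p = 0.342). ZNF814 was lower in replicate 2 by CPM, at 675 against 753 in replicate 1 (exact p = 0.0274, adjusted p = 0.461). Across the 66 genes log2 CPM had a Pearson r of 0.980 and a Spearman rho of 0.953, and across all 8983 genes 0.977 and 0.959. These describe genes that share both libraries. With no filter on low counts, 1 zinc finger gene passed, ZNF581 with 1 and 22 counts (adjusted exact p = 0.0262), a gene named after its values were seen.

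**Figure D5:**
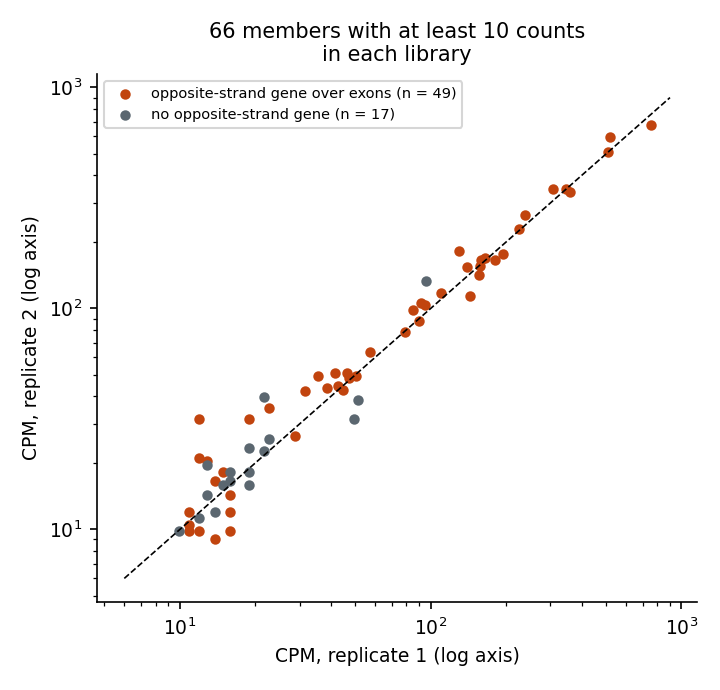
CPM in replicate 2 (y axis) against replicate 1 (x axis), both log axes, for the 66 chromosome 19 ZNF genes that reached 10 counts in both libraries, orange where an opposite-strand gene lies over the exons. The points lie along the dashed line of equality, and ZNF44 is the farthest above it.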

How the data were processed

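The deposited table held raw counts of reads per gene for both libraries, as whole numbers. Its tallies of reads on no gene, ambiguous reads and reads mapping to several places stayed out of library sizes and tests. The ambiguous reads, 17816 in replicate 1 and 23938 in replicate 2, are therefore in no gene's count. The tools named are cutadapt and STAR 2.7.0f, with build GRCh38.p10, per the submitters' processing notes. How reads were assigned to genes, on which strand, with which annotation and whether PCR duplicates were removed is not given in the sources used here. A label names the cell line U2AF2, while the source name gives HEL. Genes were matched by Ensembl identifier to GENCODE 29 (GRCh38), which gave 99.5% of rows a model. The genes and lists were chosen with earlier results of these data known.

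An overlapping gene is one of any class whose span covers a base of the exons. Library sizes were scaled by TMM in edgeR 4.0.16 (R 4.3.3), and 2 counts were added as a prior for log2 CPM. With 1 group no quasi-likelihood test was possible, so the design was the exact binomial test between the libraries. It was tried on simulated counts with counting error alone, which cannot show how it behaves under further spread between libraries. The rule named the 12 highest genes, the top 2 of each cluster, the 5 highest with no opposite-strand gene, any gene past the replicate test, the 5 highest opposite non-coding genes, partners and the cofactor list. Other computations used Python 3.11.15, numpy 2.4.6, pandas 2.3.3, scipy 1.17.1 and matplotlib 3.10.9.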

Additional observations from a re-analysis of the deposited data

How the results depend on the processing

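Of the alternative values, 47 stayed within the tolerance (1.5 times for a count of genes, 1 SD for a level, share or ratio) and 26 did not, and no direction reversed. With a minimum of 20 counts, 41 zinc finger genes were left, with a minimum of 5 counts 85, and without one replicate 67 to 79, against 66. With exon over exon as the overlap, 11 genes with a same-strand gene only and 19 with no overlapping gene reached 10 counts in each library, and with only protein-coding genes as partners these were 10 and 25, and 8 with genes on both strands. The median difference between genes with an opposite-strand gene and those with none was 3.31 with a prior count of 0.5, 2.57 per kb of exon, 1.85 with exon over exon, 1.19 with span over span, 3.96 with coding partners only, 1.40 among genes with at least 10 counts in either library, and 1.97 to 2.22 without one replicate. The difference from ZNF genes of other chromosomes was 0.15 to 0.45 without one replicate. With gaps of up to 2 Mb the last cluster was joined to the eighth and some isolated genes, and together they held 65.4%. The last cluster held 67.7% with ZNF773 and 36.0% without the 6 leaders. In the same settings the seventh cluster held 15.4% (joined to some isolated genes), 11.0% and 21.8%, and 12.5% with gaps of up to 500 kb. The sixth held 8.10% with ZNF773 and 16.1% without the leaders. The ratio of opposite to same-strand non-coding genes was 175 without pseudogenes and other classes, where 6 same-strand genes held 9 counts, and 17.2 to 29.4 without one replicate, and by medians it has no value since the same-strand median is 0. Between the replicates, 1 gene passed with no filter on low counts and 1 with ZNF773 included. The settings with ZNF773 or without the leaders, and those on intron ends, were chosen after seeing the data. Depth limits genes under 10 counts, whose levels lie near the floor. No paired analysis was possible because there is 1 group.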
